A study of Mus musculus with 2 samples.

Results

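Mature neutrophils of the healing calvarial defect were described across genes in mice given gambogic amide (GA) and in vehicle controls. They were cells that carried neither an interferon programme nor one of the CC chemokines Ccl3 and Ccl4. A cell was taken when it held 500 to 140000 unique molecular identifiers (UMIs, each a counted transcript molecule), 200 to 9500 genes and at most 15% mitochondrial UMIs, and when S100a8 and S100a9 together made up at least 5% of its UMIs. It also had to hold under 0.5% of UMIs from the granule genes Camp, Ngp and Ltf, fewer than 5 UMIs from Ifit1, Ifit3, Rsad2 and Isg15, fewer than 5 UMIs from Ccl3 and Ccl4, and under 1% of UMIs from Col1a1 and Col1a2. The rule selected 2739 of the 17129 cells within the limits, 1937 of 9036 in the GA library and 802 of 8093 in the control library.

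The cells came from 2-month-old male C57BL/6 mice (C57BL/6J in the study's text), 7 days after a 1.8 mm defect was made in the frontal bone. GA, a small molecule, was injected intraperitoneally at 1.2 mg/kg by the sample labels (the study's text gives another dose) in 100 µL of 10% DMSO, and control mice received 100 µL of 10% DMSO alone. Injections began 24 h before the injury and were repeated daily for 1 week. Bone around the defect, about 3 mm along its edge and pooled from 5 mice per group, was minced, digested with collagenase and treated with red blood cell lysis buffer, and each pool gave 1 droplet library. Treatment and library preparation cannot be told apart. With 1 library per group there is no replicate, so no test between GA and control was possible, and every interval below covers counting error only and not the spread between mice or between preparations.

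Neutrophils are made in the bone marrow, where granule proteins are laid down in order: the azurophil proteins of the earliest stage first, then lactoferrin and cathelicidin of the specific granules, then gelatinase. Mature cells stop making most granule messages, gain the chemokine receptor Cxcr2 and the granulocyte colony-stimulating factor receptor Csf3r, and leave the marrow for blood and injured tissue. In tissue they sense chemoattractants, release interleukin-1 and CXC chemokines, and soon die or are cleared.

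The label was first checked against Retnlg, a resistin-like secreted protein of mature mouse neutrophils, and against both receptors. Retnlg stood at 20602 CPM (the gene's UMIs per 1000000 UMIs of the cells summed) in GA members and 20636 CPM in control members, Cxcr2 at 985 and 913 CPM, and Csf3r at 1431 and 1422 CPM. After each cell was thinned to 2000 UMIs, Retnlg was found in 95.3% of GA and 94.1% of control members, against 8.09% and 1.495% of B cells, which should lack it and served as the background. The median depth of those B cells before thinning was 6994 and 6219 UMIs, and that of the members 5783 and 4349.5 UMIs, so members were deeper in the GA library. Genes per member stood at a median of 1610 in GA and 1408 in control, and at 842 and 867 once depth was equal. Mitochondrial UMIs made up a median of 0.279% and 0.221% of the members' UMIs.

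A few members went against the label. In 17 GA cells (0.878% of members) and 8 control cells (0.998%) the azurophil genes Mpo, Elane, Prtn3 and Ctsg held at least 0.5% of UMIs, and in those cells Retnlg stood at only 34.6 and 12.5 CPM. They were deep cells, with medians of 32853 and 29678 UMIs, and they held 98.04% of all Elane UMIs of the GA members and 99.7% of those of the control members. All 25 fell in cluster 7 of the 8 clusters described below, which held 37 GA and 21 control cells. Cluster 7 was 1.91% of GA and 2.62% of control members but 8.01% and 10.0% of their UMIs, 85.6% and 85.7% of Rpl3 UMIs and 87.4% and 86.8% of those of the division marker Mki67. The rule sets a ceiling on specific granule genes and no ceiling on azurophil genes. Several results that moved when these cells were left out are also given without cluster 7.

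**Figure D1:**
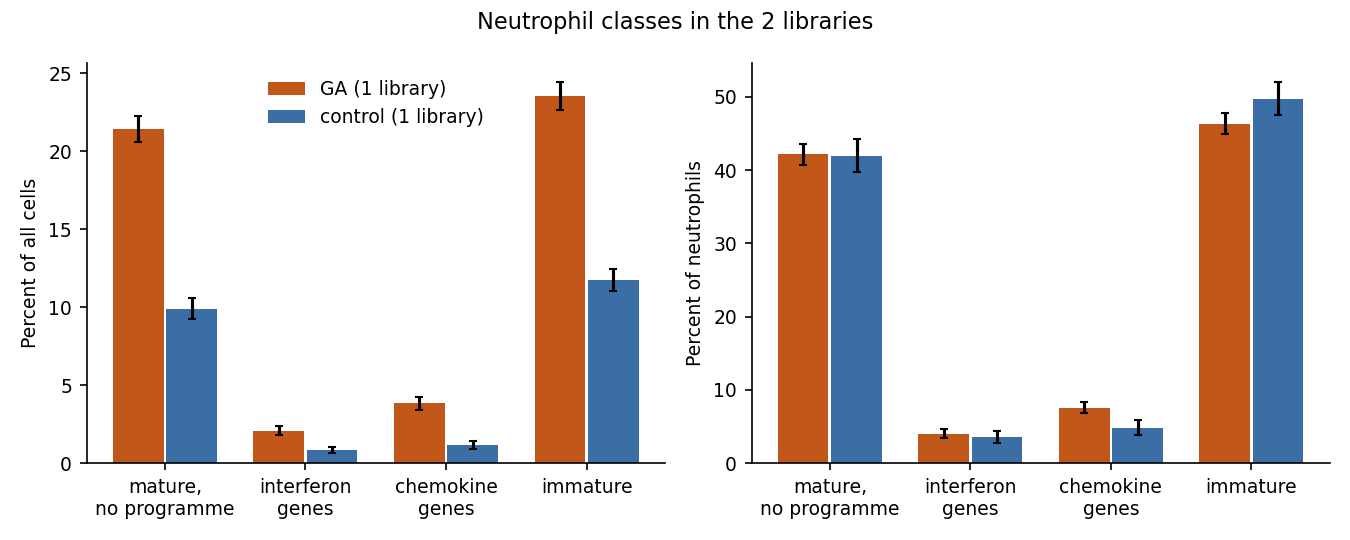
Share of each neutrophil class among all cells (left, percent of cells) and among neutrophils (right, percent of neutrophils) in the GA and control libraries, with exact 95% binomial intervals for counting error, 1 library per group. The members made up 21.4% of GA and 9.91% of control cells, but 42.1% and 41.9% of the neutrophils.

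Members made up a larger share of GA cells than of control cells, while their share of the neutrophils was nearly the same in both libraries. They formed 21.4% of all GA cells (95% Clopper-Pearson interval 20.6 to 22.3%) and 9.91% of all control cells (9.27 to 10.6%), a ratio of 2.16 (2.00 to 2.34). Of the neutrophils, members formed 42.1% (40.7 to 43.6%) in GA and 41.9% (39.7 to 44.2%) in control, a ratio of 1.00 (0.943 to 1.07). All neutrophils together were 50.9% of GA and 23.6% of control cells, a ratio of 2.15. Since shares sum to the whole, they do not show whether neutrophils were more numerous in the bone or other cells fewer, and mesenchymal cells stood at 11.5% of GA and 25.1% of control cells.

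The neighbouring classes were set apart by the same rule. Mature cells with at least 5 UMIs of Ccl3 and Ccl4 were 7.53% of GA and 4.81% of control neutrophils, a ratio of 1.56 (1.25 to 1.956). Mature cells with at least 5 interferon UMIs were 4.05% and 3.50%, a ratio of 1.15 (0.878 to 1.52). Immature cells, with at least 0.5% of granule gene UMIs, were 46.3% and 49.7%, a ratio of 0.931 (0.881 to 0.983). The limits in UMIs admit fewer cells where cells are deeper, and when every cell was first thinned to 2000 UMIs the members' ratio among neutrophils was 1.06.

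Cells were counted just inside and just outside each limit. In GA and control, 40 and 27 members held 5 to 6% of UMIs from S100a8 and S100a9. Of cells that otherwise qualified, 35 and 27 held 4 to 5%, and 147 and 121 held 1 to 4%. At the granule limit, 60 and 20 members lay between 0.4 and 0.5%, and 44 and 14 cells lay between 0.5 and 0.6%. With 4 interferon UMIs there were 64 and 34 members, and with 5 there were 45 and 13 cells outside. With 4 Ccl3 and Ccl4 UMIs there were 33 and 15 members, and with 5 there were 20 and 7 cells outside. At the collagen limit, no member lay between 0.5 and 1%, and no cell that otherwise qualified lay between 1 and 1.5%. Most members had none of these transcripts, with 1210 GA and 492 control members at 0 interferon UMIs and 1554 and 623 at 0 chemokine UMIs. The libraries shared 23 cell barcodes, and none of these marked a member in both.

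Against immature neutrophils the members stood apart in both libraries by surface and inflammatory genes that the rule did not use, although genes of cells chosen on their own profile are a description and no test. Csf3r was higher in members by 2.65 (GA) and 2.71 (control) on the log2 scale and Cxcr2 by 2.26 and 2.52. Il1b, which encodes the fever cytokine interleukin-1 beta, stood at 4871 and 4244 CPM in members and at 257 and 261 CPM in immature cells. Cxcl2, a CXC chemokine that draws further neutrophils through Cxcr2, stood at 1889 and 1771 CPM against 149.8 and 152 CPM. Of genes with at least 200 UMIs, 13.9% were more than 2-fold higher and 19.2% more than 2-fold lower in members than in immature cells in GA, and 15.9% and 16.9% in control. Without cluster 7 the shares lower in members were 29.4% in GA and 26.2% in control, and the shares higher 15.02% and 17.7%. By the largest fold in both libraries, the genes higher in members included Pla2g7, a phospholipase that inactivates platelet-activating factor, at 314 and 288 CPM against 14.1 and 10.5 CPM. The paired receptors Sirpb1b and Sirpb1c, the interleukin-13 receptor chain Il13ra1 and the tetraspanin Tspan13 were among the same 8 genes. The genes lower in members were led by Ltf, Camp and Ngp, which the rule used, and by the acute phase gene Orm1 and the chitinase-like gene Chil3, at 157 and 148 CPM in members against 4951 and 5386 CPM in immature cells. Without cluster 7, Chil3 stood at 31.3 and 15.5 CPM in members, a log2 ratio of GA over control of 1.02.

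Against the interferon class the members differed in both libraries by the interferon genes and, in the full set, by ribosomal protein genes that came from cluster 7. Some genes of other cell types differed in 1 library. Without cluster 7, H2-Aa was lower in members by 6.06 in GA and 0.72 in control on the log2 scale, and Cd74 by 4.48 and 0.21. Hbb-bs was higher in members by 0.71 in GA and 4.16 in control. Members then held 34 and 15 UMIs of H2-Aa and 167 and 96 of Cd74. The interferon class had 186 cells in GA and 67 in control, so these values rest on a small class. In GA, 4.77% of genes were more than 2-fold higher in members than in the interferon class and 1.78% lower, and in control 6.12% and 1.58%. All 8 genes of the largest fold above the interferon class encoded ribosomal proteins, for example Rpl10a at 160 and 212 CPM against 20.6 and 24.7 CPM. Without cluster 7, Rpl10a stood at 20.4 and 30.6 CPM, and the number of genes more than 2-fold higher went from 228 to 26 in GA and from 166 to 54 in control. Beyond the rule's own Ifit1, Ifit3, Rsad2 and Isg15, the genes of the largest fold below the interferon class in both libraries were Herc6, Oasl1, Slfn5 and Slfn8, all interferon-induced, with Oasl1 at 20.3 and 25.8 CPM against 199 and 205 CPM. Retnlg, Cxcr2 and Csf3r were within 0.5 on the log2 scale of the interferon class in both libraries, apart from Retnlg in control at 0.56 without cluster 7.

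Against the chemokine class the members were lower in Csf1, the macrophage colony-stimulating factor, at 29.4 and 59.3 CPM against 233 and 401 CPM, and in the immediate early genes Egr2 and Egr3. The survival gene Bcl2a1d was lower by 2.23 in GA and 2.18 in control on the log2 scale, and the C-type lectin Clec4n by 2.78 and 3.63. Retnlg was higher in members by 0.86 and 0.94. In GA, 2.38% of genes were more than 2-fold higher in members than in the chemokine class and 3.05% lower, and in control 3.82% and 3.07%. Without cluster 7, 0.909% were higher and 3.79% lower in GA, and 2.96% and 3.43% in control.

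**Figure D2:**
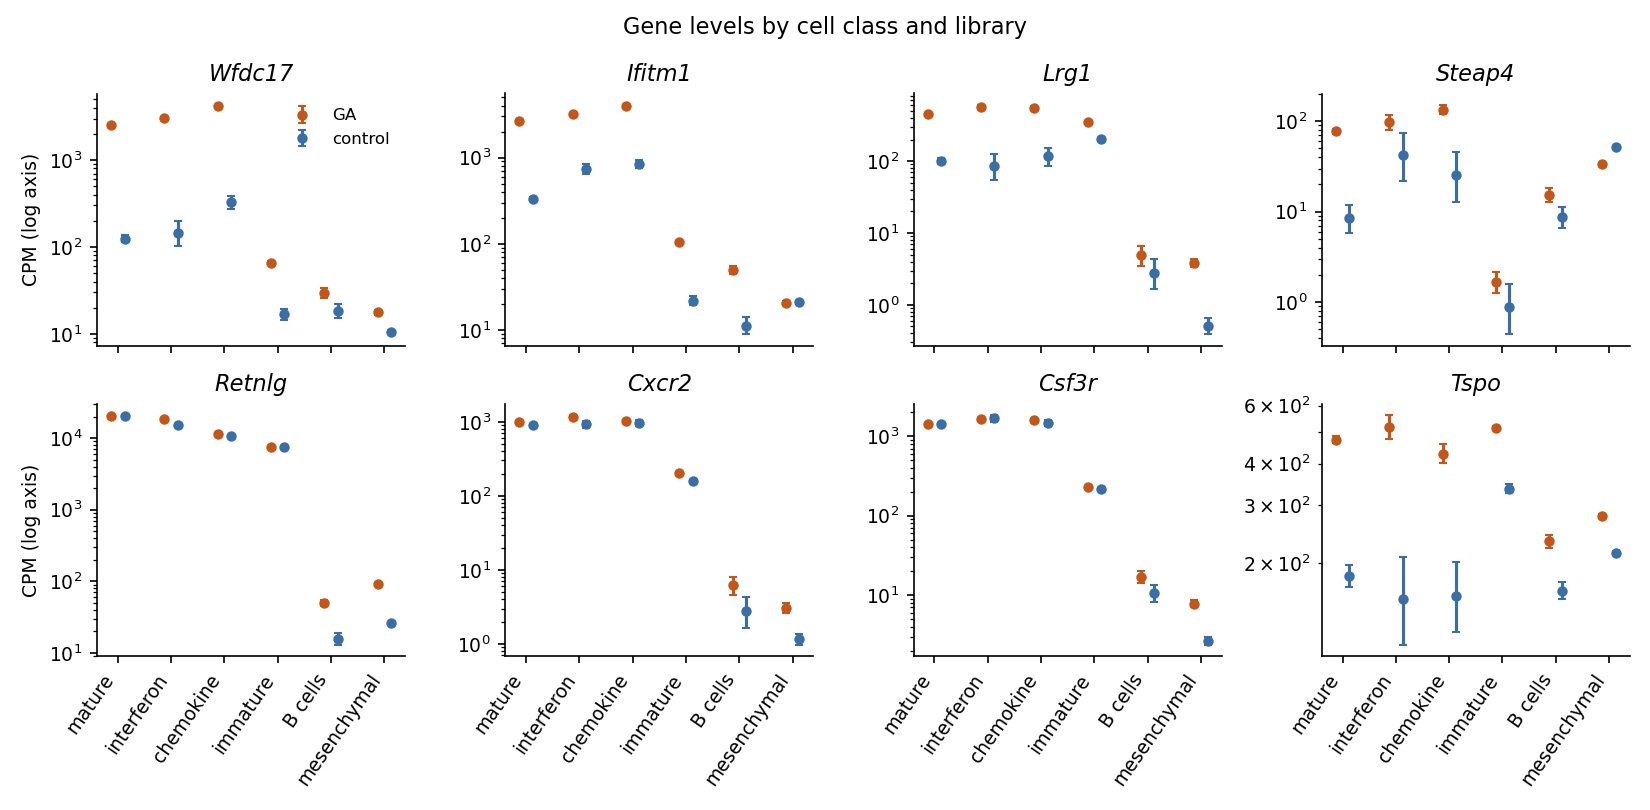
Level of 8 genes (CPM, log axis) in members and 5 other cell classes of the GA and control libraries, with exact 95% Poisson intervals for counting error. Retnlg, Cxcr2 and Csf3r nearly coincide between libraries in members, whereas Wfdc17 stands at 2540 CPM in GA and 124 CPM in control members.

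Each gene was then compared between GA and control members, a comparison of 2 libraries in which treatment and preparation cannot be told apart. Most genes lay close together in both libraries. Of 5237 genes with at least 200 UMIs over the members, 59 (1.13%) differed by more than 2-fold, 30 higher (0.573%) and 29 lower (0.554%) in GA. Relative to the median ratio the split was 38 higher and 20 lower, and scaled without S100a8, S100a9 and mitochondrial genes it was 36 and 26. The median log2 ratio of GA over control was -0.09, and the 10th and 90th percentiles were -0.41 and 0.22. The identity genes lay within these percentiles, with a log2 ratio of -0.00 for Retnlg (95% interval -0.01 to 0.01), 0.11 for Cxcr2 (0.06 to 0.17) and 0.01 for Csf3r (-0.03 to 0.05).

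**Figure D3:**
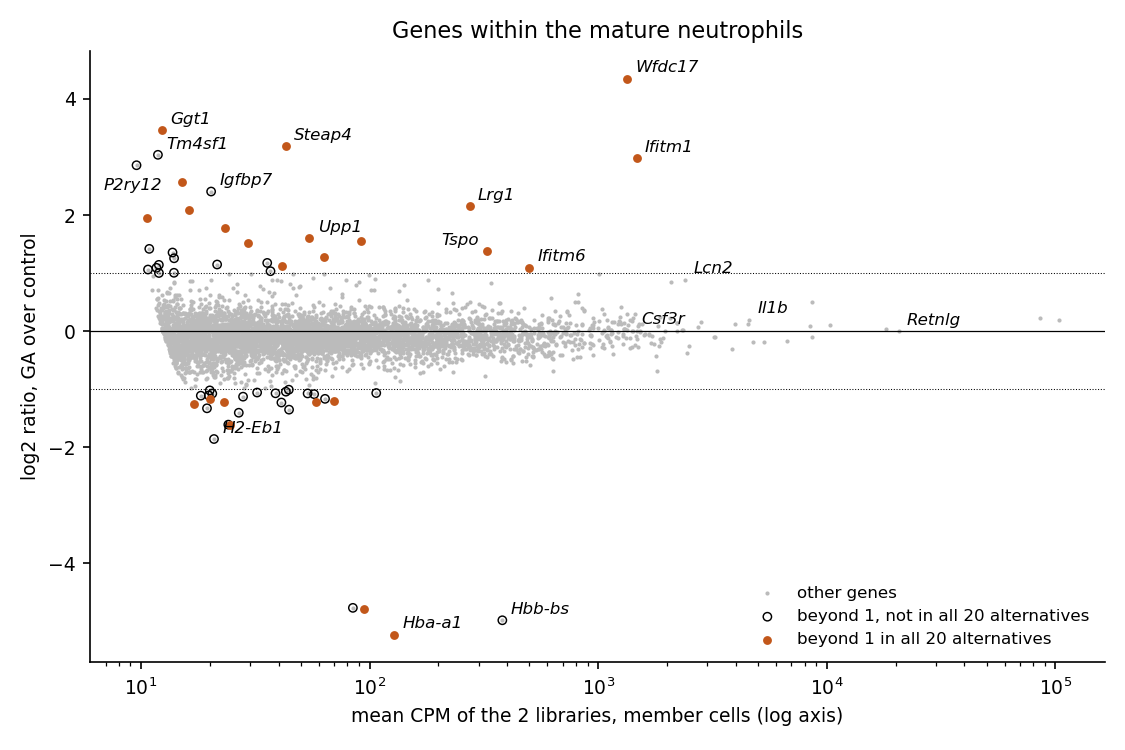
Log2 ratio of GA over control (vertical axis) against the mean CPM of both libraries (log axis) for the 5237 genes with at least 200 UMIs over the members; dotted lines mark a 2-fold difference. Wfdc17 and Ifitm1 stand far above other genes of similar level, and the lowest points are the 4 haemoglobin genes.

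Wfdc17, a small secreted whey acidic protein of myeloid cells with an antiprotease fold, had the highest ratio of GA over control among the genes tested. The GA members held 30977 Wfdc17 UMIs (2540 CPM) and the control members 483 UMIs (124 CPM), so the level was 20.4-fold higher in GA, a log2 ratio of 4.35 (4.22 to 4.48). The gene lies on chromosome 11 at 83703991 to 83706268 of GRCm38. The transcripts were spread over the cells and did not come from a few. In cells thinned to 2000 UMIs, 72.6% of GA and 12.1% of control members had a Wfdc17 UMI, with medians of 3 and 0 and 90th percentiles of 15 and 1 UMIs. B cells at the same depth had a Wfdc17 UMI in 2.91% of GA and 2.33% of control cells.

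Ifitm1, a membrane protein of the interferon-induced transmembrane family that restricts entry of viruses, differed next among abundant genes. GA members held 31908 UMIs (2617 CPM) and control members 1289 UMIs (332 CPM), a log2 ratio of 2.98 (2.90 to 3.06). The gene lies on chromosome 7 at 140967221 to 140969825. At 2000 UMIs per cell, 74.6% of GA and 29.2% of control members had an Ifitm1 UMI, against 3.24% and 1.66% of B cells. Both genes together were found in 60.1% of GA and 4.91% of control members, and neither was found in 12.9% of GA and 63.6% of control members. The libraries overlapped, since 248 of 1925 thinned GA members showed neither transcript, as 506 of 795 control members did.

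Lrg1, a secreted leucine-rich glycoprotein stored in neutrophil granules, stood at 447 CPM in GA and 100.5 CPM in control members, with 5449 and 390 UMIs, a log2 ratio of 2.15 (2.00 to 2.30). At 2000 UMIs per cell, 49.97% of GA and 15.97% of control members had an Lrg1 UMI, and 0.81% of GA B cells and 0 of the 602 control B cells did, which allows a share of up to 0.498%.

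Steap4, a metalloreductase that reduces iron and copper and is induced by inflammatory cytokines, stood at 77.5 CPM in GA members and 8.502 CPM in control members, with 945 and 33 UMIs. Its log2 ratio was 3.19 (2.69 to 3.74). A single control cell held 14 of the 33 control UMIs, and without the top cell of each library the log2 ratio was 3.94. At 2000 UMIs per cell, 11.7% of GA and 0.755% of control members had a Steap4 UMI, against 4.21% and 3.16% of B cells, so the control members were below the B cells.

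The 4 genes were also compared in the other neutrophil classes, whose cells the members' values did not use, although all classes came from the same pair of libraries. In the interferon class the log2 ratio of GA over control was 4.39 for Wfdc17, 2.11 for Ifitm1, 2.73 for Lrg1 and 1.20 for Steap4. In the chemokine class it was 3.69, 2.24, 2.23 and 2.39. In immature cells it was 1.97, 2.27, 0.81 and 0.93, at levels of 65.5 and 16.8 CPM for Wfdc17 and 354 and 202 CPM for Lrg1. Wfdc17 was higher in members than in immature cells by 5.28 on the log2 scale in GA and 2.89 in control, and Lrg1 by 0.34 in GA and lower by 1.01 in control. Outside neutrophils, Wfdc17 stood at 651 CPM in GA and 731 CPM in control among cells that belonged to no neutrophil, B or mesenchymal class.

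Background was estimated from the B cells, where S100a8 and S100a9 made up 0.0756% of UMIs in GA and 0.0245% in control. Set against their share of the whole library, this put background at 1.03% of a GA cell's UMIs and 1.24% of a control cell's, although some cells of the B cell class held more, with up to 3.92% and 3.35% of UMIs from these genes. B cells showed a log2 ratio of 0.69 for Wfdc17 and 2.14 for Ifitm1, at 49.7 and 11.3 CPM for the latter. With the background subtracted, 30 of the 30 higher genes and 28 of the 29 lower genes kept a difference beyond 2-fold.

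The start of Steap4 is shown because it alone among the 4 genes holds a match to TTCNNNGAA, the palindrome bound by STAT factors. The 250 bases before its RefSeq start lie at chr5:7960222-7960471 on the plus strand of GRCm38.p6 and are given 5′ to 3′. Capitals mark matches on either strand to TTCNNNGAA and to TTGCNNAA, a pattern for C/EBP factors.
Steap4: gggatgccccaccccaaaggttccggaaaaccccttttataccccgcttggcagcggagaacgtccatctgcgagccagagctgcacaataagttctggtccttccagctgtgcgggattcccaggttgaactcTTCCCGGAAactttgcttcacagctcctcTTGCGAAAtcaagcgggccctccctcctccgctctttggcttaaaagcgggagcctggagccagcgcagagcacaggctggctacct
The STAT pattern starts 116 bases and the C/EBP pattern 87 bases before the start site. Of 32851 RefSeq promoter windows of the same length, 7.02% held TTCNNNGAA and 9.56% held TTGCNNAA. Neither pattern was in the window of Wfdc17, Ifitm1 or Lrg1, and GAGGAA, the core bound by PU.1 and found in 23.3% of windows, was in that of Wfdc17. These letters are a description of sequence, and no binding was measured.

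Beyond these 4 genes, 12 more were higher by over 2-fold in GA members in the main analysis and in each of 20 alternative analyses. Of the 29 lower genes, 8 were lower by over 2-fold in all of these, among them Hba-a1, Hba-a2, Cacnb2, Arl4c and Col5a2. Hba-a1, Hba-a2 and Col5a2 reached the minimum of 200 UMIs only through their higher level in control. The alternatives counted leave aside a minimum of 1000 UMIs per gene. Here the minimum of 200 UMIs was applied to the main analysis and not again in each alternative. With it applied again, 10 of the 30 higher genes were still counted after members were thinned to 2000 UMIs. Ggt1, the gamma-glutamyl transferase that cleaves glutathione and leukotriene C4 at the cell surface, had 276 UMIs in GA and 8 in control, a log2 ratio of 3.46 (2.46 to 4.68), spread over 195 and 7 cells. P2ry12, a receptor for ADP, had 317 and 17 UMIs and a log2 ratio of 2.57. Igfbp6, which binds insulin-like growth factor 2, had 319 and 24 UMIs (2.08), and the chitinase-like gene Chil5 had 206 and 17 (1.95). Each of these was found in at most 11.3% of GA members, so they were rare transcripts. Ggt1, P2ry12, Igfbp6 and Chil5 reached the minimum of 200 UMIs only through their higher level in GA, so that level decided whether they were compared.

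Higher and better sampled were Tspo, a mitochondrial cholesterol-binding protein, at 473 and 183 CPM (log2 ratio 1.37, 1.26 to 1.49), and Cmah, the hydroxylase that makes N-glycolylneuraminic acid, at 137 and 46.6 CPM (1.55). Ifitm6 stood at 681 and 319 CPM (1.09), Qsox1, a secreted sulfhydryl oxidase, at 89.5 and 36.8 CPM (1.28), and Upp1, a uridine phosphorylase, at 82.1 and 27.1 CPM (1.60). Prok2, also called Bv8, a chemokine-like protein of granulocytes, stood at 43.5 and 15.2 CPM (1.52). Bend4 had a log2 ratio of 1.12. Less well sampled was Cd244a, a receptor of the SLAM family, with 441 UMIs in GA and 41 in control and a log2 ratio of 1.78. Cd244a reached the minimum of 200 UMIs only through its higher level in GA, so that level decided whether it was compared.

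Several further genes past 2-fold rested on 1 cell. In GA, a single cell held 233 of 258 Tm4sf1 UMIs, 195 of 205 Col4a1 UMIs and 385 of 416 Igfbp7 UMIs, genes known from vessel walls. Without the top cell of each library their log2 ratios were -0.03, -1.35 and -1.30. Of the 6 endothelial and pericyte markers, 0 reached 200 UMIs. Their sum was 18.5 CPM in GA, led by Plvap, and 3.61 CPM in control, and 5 cells held 93.8% of the GA sum.

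The lowest ratios belonged to transcripts of other cell types. The haemoglobin genes Hba-a1, Hbb-bs, Hba-a2 and Hbb-bt stood at 6.64, 23.4, 6.56 and 5.99 CPM in GA members and at 249, 738, 182 and 163 CPM in control members. The 5 richest control cells held 95.7% of the erythroid list, and 1 control cell held 1592 of 2866 Hbb-bs UMIs. Without the top cell of each library the ratios, in the order Hba-a1, Hbb-bs, Hba-a2 and Hbb-bt, were -4.21, -3.89, -3.89 and -3.82. The erythroid list summed to 43.2 CPM in GA and 1337 CPM in control members. Near-identical alpha and beta globin copies share reads, so their split between genes is uncertain.

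The class II genes H2-Eb1, H2-Ab1 and H2-Aa, which present antigen in dendritic and B cells, had log2 ratios of -1.86, -1.61 and -1.33, with 127, 141 and 108 UMIs in control. In H2-Eb1 a single control cell held 85 of the 127 UMIs, and without the top cell of each library the 3 ratios were -0.95, -1.11 and -0.23. With doublets removed by Scrublet score they were -0.28, 0.032 and 1.45. The dendritic list, led by Cd74 and summing to 65.4 and 155 CPM, had 3 of 3 tested genes more than 2-fold lower, with 62.7% of its GA and 74.8% of its control UMIs in 5 cells each. Without cluster 7, which held 65.2% and 72.0% of Cd74 UMIs, its sum was 25.5 and 44.1 CPM and 0 of its 3 tested genes, Cd74, H2-Ab1 and H2-Aa, were more than 2-fold lower. H2-Eb1, which is not in the list, was then at -1.12 with 62 and 42 UMIs.

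Among the genes past 2-fold were 5 stromal transcripts found at 1 to 3 UMIs per cell. Lum, Postn, Bgn, Col5a2 and Col6a1 had log2 ratios from -1.02 to -1.25, for example 12.3 and 27.8 CPM for Col5a2 over 143 and 102 cells. Their ratios in B cells, which do not make them, ran from -0.53 to -1.43. Mesenchymal cells were 11.5% of GA and 25.1% of control cells. The mesenchymal list of 8 genes, led by Col3a1, summed to 260 CPM in GA and 385 CPM in control members, with 1 of 5 tested genes, Lum, more than 2-fold lower and 0 of 5 without cluster 7. The osteocalcin gene Bglap of the same list had a ratio above 0 (0.32), with 173 and 44 UMIs. Macrophage markers summed to 393 and 466 CPM, led by Apoe, and monocyte markers to 551 and 566 CPM, led by Ly6c2, with 0 genes past 2-fold in either list. Without cluster 7 the macrophage sums were 264 and 364 CPM and the monocyte sums 464 and 385 CPM, so the monocyte sum was then higher in GA. Apoe then had a log2 ratio of -0.99, and 0 genes of either list were past 2-fold. The part of these other cells in the members' ratios was not tested. Other genes past 2-fold lower in GA included Cacnb2 (-1.62), a calcium channel subunit, the small GTPase Arl4c (-1.20) and the integrin Itga8 (-1.22).

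**Figure D4:**
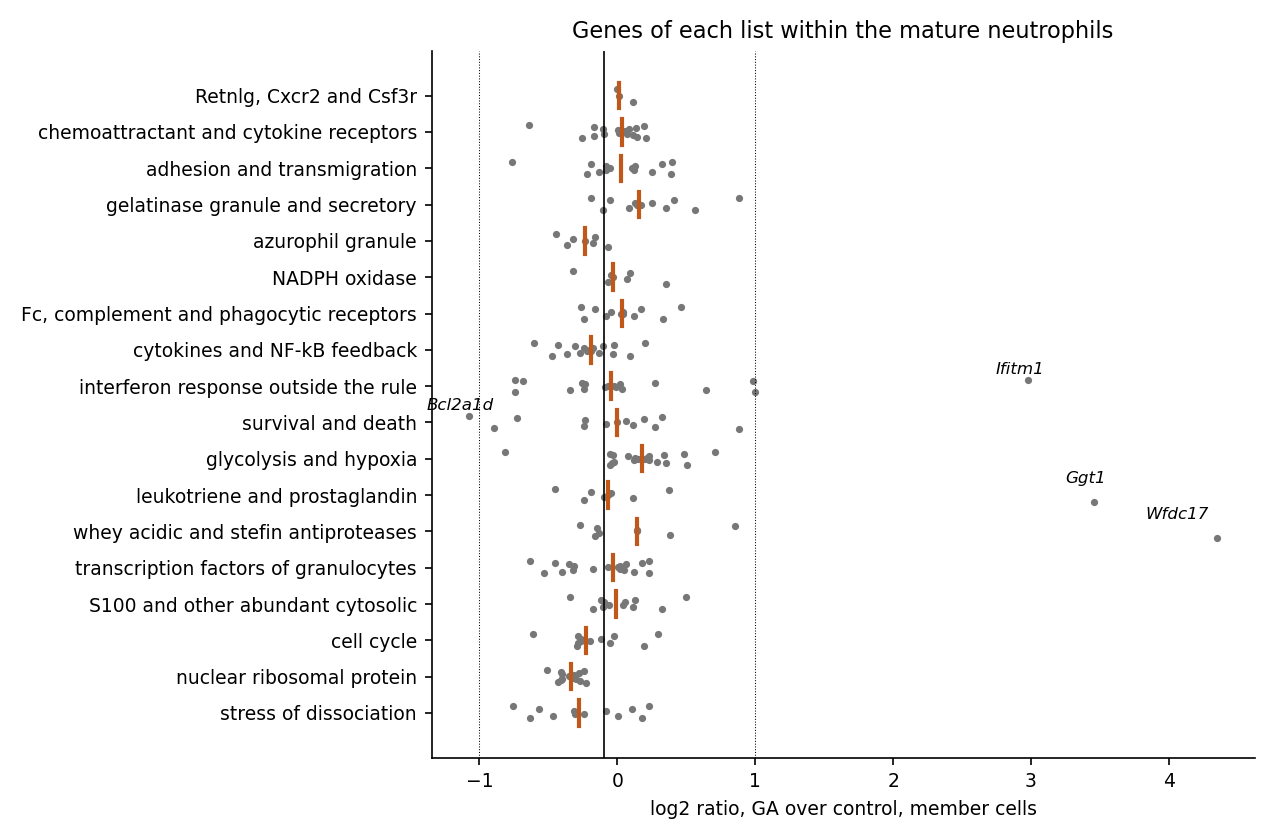
Log2 ratio of GA over control for each tested gene of 17 lists and the 3 marker genes (grey points) with the list's median (orange bar); the black line marks the median of all tested genes, -0.09, and dotted lines a 2-fold difference. Most genes lie within a 2-fold difference, and Wfdc17 (4.35), Ggt1 (3.46) and Ifitm1 (2.98) lie far to the right.

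The known functions of mature neutrophils were then read list by list against the background of 0.573% of genes more than 2-fold higher and 0.554% lower. Of 17 chemoattractant and cytokine receptors, 0 differed by over 2-fold, with a median log2 ratio of 0.04. Il1r2, the decoy receptor for interleukin-1, was the most abundant at 2205 and 2202 CPM, and the complement receptor C5ar1 stood at 550.5 and 536 CPM. The formyl peptide receptor Fpr1 stood at 338 and 293 CPM, and the marrow retention receptor Cxcr4 at 233 and 250 CPM. The lowest ratio was that of Ccrl2, which binds chemerin without signalling, at 100 and 157 CPM (-0.64).

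Of 14 genes of adhesion and transmigration, 0 differed by over 2-fold (median 0.03). The hyaluronan receptor Cd44 stood at 1425 and 1506 CPM and the integrin alpha chain Itgam at 670 and 623 CPM. Jaml, a junctional adhesion molecule of leukocytes, was lowest at 236 and 401 CPM (-0.77), and Selplg, which carries the selectin ligand PSGL-1, stood at 541 and 412 CPM (0.39).

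Of 12 gelatinase and secretory genes, 0 differed by over 2-fold, or 1 without cluster 7, Chil3. The median was 0.16 and 9 of the 12 were above 0, as were 33.6% of all tested genes. Lcn2, lipocalin-2, which binds iron-carrying siderophores, came nearest at 3117 and 1688 CPM (0.89). The gelatinase Mmp9 stood at 2021 and 1702 CPM, the collagenase Mmp8 at 1570 and 1440 CPM, and Anxa1, which limits recruitment, at 745 and 503 CPM (0.57). Lyz2, lysozyme, was the most abundant at 4965 and 5660 CPM (-0.19).

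All 7 azurophil granule genes were below 0 in the members (median -0.24), and 0 were past 2-fold. Without cluster 7 the list kept 701 UMIs in GA and 90 in control (62.5 and 25.8 CPM), with a median of 1.90 and 6 of 7 genes past 2-fold higher. Of the 7, 1 reached 200 UMIs, the protease Ctsc, with 347 and 52 UMIs and a log2 ratio of 1.05. Among all genes that reached 200 UMIs without cluster 7, 31 of 4717 were more than 2-fold higher. Mpo then had 70 and 2 UMIs and Elane 71 and 3. In B cells the list summed to 2529 CPM in GA and 92.2 CPM in control, and its part in these values was not tested.

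The oxidase that makes superoxide was level, with 0 of 7 tested genes of 8 past 2-fold and a median of -0.03. Its membrane subunit Cyba stood at 902 and 945 CPM. Fc, complement and phagocytic receptors also gave 0 of 12 tested genes of 14, with a median of 0.03. The fungal lectin Clec4d stood at 1683 and 2018 CPM, the Fc gamma chain Fcer1g at 1273 and 1169 CPM and Cd14, a co-receptor for endotoxin, at 815 and 646 CPM.

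Cytokines and feedback genes of NF-kB gave 0 of 18 tested genes past 2-fold, with a median of -0.19 and 2 genes above 0. Those were Il1b, at 4871 and 4244 CPM (0.20), and Cxcl2, at 1889 and 1771 CPM (0.09). Ccl6, a CC chemokine outside the rule, stood at 1530 and 2066 CPM (-0.43), and Nlrp3, the inflammasome sensor, at 468 and 581 CPM (-0.31). Il1a stood at 19.8 and 30.1 CPM (-0.60) and Il1rn, the receptor antagonist, at 180 and 250 CPM (-0.47).

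Of the interferon-response genes that the rule did not use, 2 of 18 tested were past 2-fold, both higher in GA. These were Ifitm1 and Gbp2, a guanylate-binding protein. Gbp2 had 195 and 31 UMIs and a ratio of 1.00 (0.45 to 1.60), or 0.89 without cluster 7, where Ifitm2 was at 1.01. Gbp2 reached the minimum count for testing only through its higher level in GA, so that level decided whether it was compared. The median of the list was -0.04. Ifitm2 stood at 1340 and 679 CPM (0.98) and Ifitm3 at 993 and 635 CPM (0.65), so Ifitm1, Ifitm2, Ifitm3 and Ifitm6 all had ratios above 0. Ifi27l2a stood at 488 and 785 CPM (-0.68), Cmpk2 at 13.1 and 21.9 CPM (-0.74), and Irf7 and Oasl2 were within 0.3 of 0. Related Ifitm genes can share reads, and the sources used here do not state how shared reads were assigned.

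Of 13 tested survival and death genes, 1 was past 2-fold, Bcl2a1d at 13.2 and 27.8 CPM (-1.08), with Bax joining it without cluster 7. Its near-identical copy Bcl2a1b stood at 73.6 and 137 CPM (-0.90), so the split between them is uncertain. Bcl2l1, which encodes Bcl-xL and holds off apoptosis, stood at 234 and 127 CPM (0.88). Mcl1, the survival protein on which neutrophils depend, stood at 1400 and 1297 CPM (0.11).

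Of 20 glycolysis and hypoxia genes, 0 were past 2-fold, with 14 above 0 and a median of 0.18. Gapdh stood at 954 and 672 CPM (0.50), Pkm at 722 and 570 CPM (0.34) and Pgk1 at 232 and 166 CPM (0.48). Vegfa, the vascular growth factor of the list, went the other way at 42.1 and 74.2 CPM (-0.82).

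Leukotriene and prostaglandin genes gave 1 of 9 tested past 2-fold, Ggt1. As stated above, Ggt1 reached the minimum count for testing only through its higher level in GA. Alox5ap, which presents arachidonic acid to 5-lipoxygenase, stood at 1174 and 907 CPM (0.37), and Alox5 itself at 192 and 205 CPM. Among whey acidic and stefin antiproteases, Wfdc17 alone of 9 tested was past 2-fold. Its relative Wfdc21 stood at 2681 and 1484 CPM (0.85) and Slpi, which inhibits elastase, at 2320 and 2100 CPM (0.14). The 5 tested stefin and cystatin genes lay between -0.27 and 0.38.

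The transcription factors of granulocytes gave 0 of 18 tested past 2-fold (median -0.03), with Cebpb at 2785 and 2664 CPM and Spi1, which encodes PU.1, at 589 and 541 CPM. S100 and other abundant cytosolic genes gave 0 of 12, with Tmsb4x at 18404 and 17866 CPM and S100a6 at 10117 and 7152 CPM (0.50). All 15 ribosomal protein genes were below 0 (median -0.33, and -0.41 without cluster 7), and 0 were past 2-fold. Cell cycle genes gave 0 of 12 (median -0.23), and without cluster 7 the median was 0.24 and 3 of the 12 reached 200 UMIs. Of the others, Top2a, Ube2c and Rrm2 were then past 2-fold higher on 22 and 3, 23 and 1, and 18 and 2 UMIs. Genes induced by tissue dissociation gave 0 of 12 (median -0.27), with Fos at 1473 and 1469 CPM and Hspa1b at 16.6 and 28.1 CPM. A list was taken from the study's own table of neutrophil genes, chosen on these libraries and so no independent evidence. It had 4 of 4 tested genes higher. Of these, Ggt1 and Steap4 reached the minimum count for testing only through their higher level in GA.

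**Figure D5:**
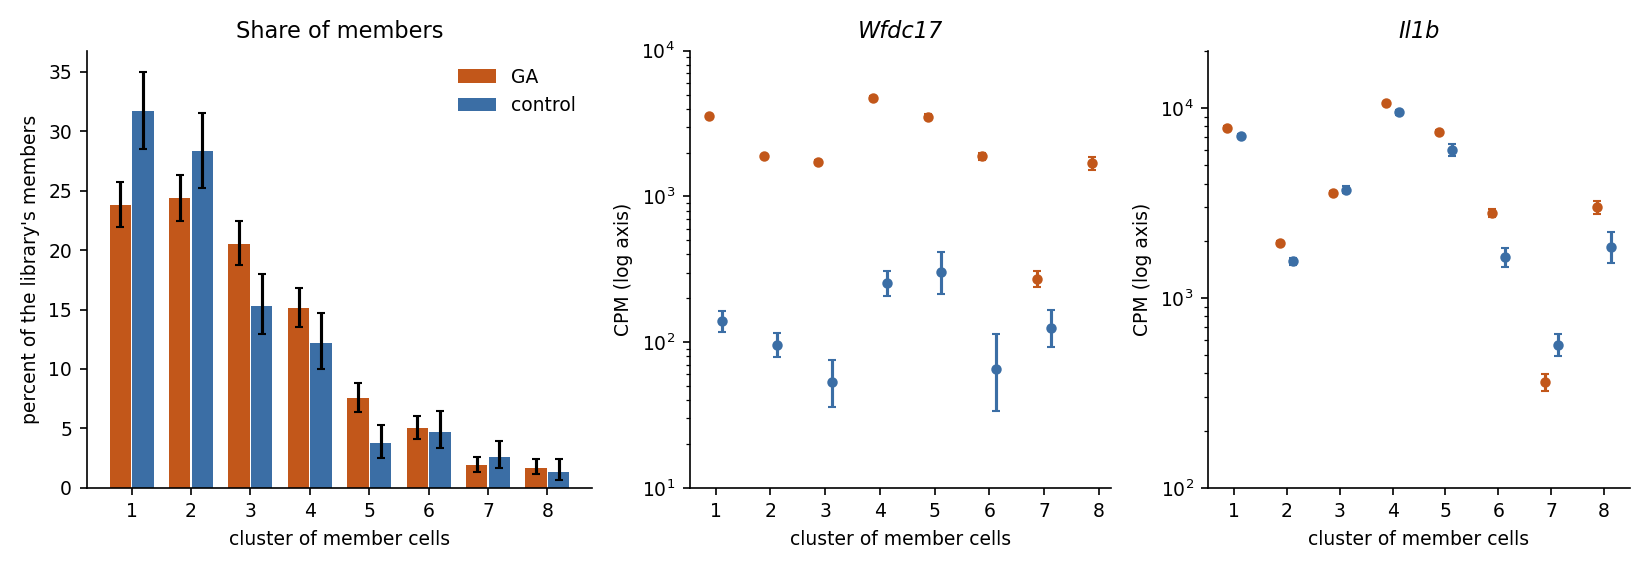
Share of each library's members in 8 clusters (left, percent, exact 95% binomial intervals) and the level of Wfdc17 and Il1b by cluster (CPM, log axis, exact 95% Poisson intervals) in GA and control. Wfdc17 is higher in GA in every cluster, with 0 control UMIs in cluster 8, while Il1b varies more between clusters than between libraries.

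To see how members varied among themselves, the 2739 cells were clustered without the genes of the rule and without genes that differed by more than 0.5 on the log2 scale between libraries. The clusters are named by number and leading genes and are a description of the cells clustered. Clusters 2 and 3 carried the highest Retnlg of the 4 largest clusters, 30008 and 27882 CPM, with Mmp8 at 2477 and 2057 CPM and Ly6g, a surface marker of mouse neutrophils, at 614 and 471 CPM. Cluster 2 was led by Cmpk2 and S1pr4, and cluster 3 by Cables1 and the haemoglobin gene Hbb-bs. In cluster 3, Hbb-bs stood at 25.5 CPM in GA and 2865 CPM in control, with 61 and 1624 UMIs. Clusters 1 and 4 carried less Retnlg, 14061 and 10186 CPM, and more Il1b, 7659 and 10395 CPM, against 1836 CPM in cluster 2. Cluster 1 was led by Gm41409, the CXC chemokine Cxcl3, the lipid receptor Gpr84 and Il1a, and had the highest Cxcr4, 508 CPM. Cluster 4 was led by the immediate early genes Egr2, Egr3 and Egr1, the last at 1948 CPM against 134 CPM in other members, and had Ptgs2, the inducible prostaglandin synthase, at 1860.5 CPM.

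The smaller clusters were led by fewer genes. Cluster 5 was led by Usp37 and Epc1, with the NF-kB inhibitor Tnfaip3 at 522 CPM against 173 CPM. Cluster 6 was led by the stefin-like genes Cstdc5 and Cstdc4, the latter at 6589 CPM against 558 CPM, and cluster 8 by Stfa1, at 6892 CPM against 101 CPM. These stefin genes are close copies in tandem, so their reads may be split. Cluster 7, described above, was led by Elane, Prtn3, Ctsg and Ms4a3, had a median of 23180 UMIs, against 4695 to 6423 in the others, and goes against the name of mature neutrophils.

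The libraries were spread over the same clusters in unequal shares. Cluster 1 held 23.8% of GA members (21.9 to 25.8%) and 31.7% of control members (28.5 to 35.02%), a ratio of 0.751 (0.660 to 0.855). Cluster 2 held 24.4% and 28.3% (0.861, 0.752 to 0.986) and cluster 3 held 20.5% and 15.3% (1.34, 1.11 to 1.61). Cluster 4 held 15.1% and 12.2% (1.24, 1.00 to 1.53) and cluster 5 held 7.54% and 3.74% (2.02, 1.37 to 2.96). In clusters 6, 7 and 8 the interval of the ratio spanned 1. Depth differed between the libraries in each cluster, for example 5062 and 3992 UMIs per cell in cluster 1, and its part in these shares was not tested.

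The difference in Wfdc17 and Ifitm1 was seen in each cluster. The log2 ratio of Wfdc17 ran from 3.54 in cluster 5 to 5.03 in cluster 3, apart from 1.11 in cluster 7 and from cluster 8, where 371 GA UMIs stood against 0 in control. That of Ifitm1 ran from 2.37 in cluster 7 to 3.55 in cluster 2, and that of Lrg1 from 1.29 in cluster 7 to 2.59 in cluster 6. The GA level itself varied, from 4767 CPM of Wfdc17 in cluster 4 to 272 CPM in cluster 7. Retnlg was within 0.2 of 0 in every cluster but cluster 7, where it was -0.68.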

How the data were processed

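Single-cell 3′ transcriptomes were measured in 2 libraries, 1 per group. The authors deposited UMI counts per gene and barcode, filtered to called cells. The matrix headers name cellranger 7.0.1, and the submitters' processing notes name Cell Ranger and mm10. The total was 182949385 UMIs over 9322 barcodes in GA and 214993030 over 8718 in control. Counts of member cells (12194600 and 3881210) were summed per library and divided by their total to give CPM. The log2 ratio of GA over control carries an exact conditional binomial 95% interval. Genes with at least 200 UMIs over the members were compared, and called means a log2 ratio beyond 1. Some genes reached this minimum only through their higher level in GA, and some, such as Hba-a1, only through their higher level in control. The members and lists were chosen with earlier results of these data known. The study's pseudobulk model needs replicates and was not fitted.

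No doublets were removed in the main analysis. Alternatives changed the limits of the rule, the depth of cells, the minimum count per gene, the scaling and the weight of cells, subtracted background or removed doublets by Scrublet score. Members were clustered with scanpy 1.11.5 on Pearson residuals of 2000 variable genes (30 components, 15 neighbours, Leiden resolution 0.5). Genes named in the text were the genes of the rule, the 3 marker genes, the 10 highest and 10 lowest ratios, list genes past 2-fold, the most abundant of each list, and the leading genes of classes and clusters. Some further genes, such as those kept under all alternatives and list genes between these, were chosen after their values were seen. Gene positions are from GENCODE vM21, in which all 401 genes looked up were found, and the promoter window is from RefSeq, GRCm38.p6. Ratios were tested on simulated data. Some genes that meet the naming rule are not reported here. Of the lists' genes, 5 symbols were not in the files.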

Additional observations from a re-analysis of the deposited data

How the results depend on the processing

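No paired analysis was possible because each group holds 1 library, and for the same reason no replicate could be left out. The ratio of GA over control in the members' share of all cells ran from 2.06 to 2.30 over the alternatives, apart from 2.44 with S100a8 and S100a9 at 10% or more, and in their share of neutrophils from 0.984 to 1.07. The number of genes more than 2-fold higher and lower, 30 and 29 in the main analysis, was 106 and 133 at 50 or more UMIs per gene, 8 and 3 at 1000 or more, and 13 and 11 with members thinned to 2000 UMIs. With S100a8 and S100a9 at 10% or more, 47 were higher. With 3% or more, 59 were lower, and with all cells thinned before the rule, 13. Leaving out cluster 7, the members rich in azurophil transcripts or the top cell was chosen after seeing the data. Without cluster 7, 31 were higher and 24 lower, of which 22 and 22 were among those of the main analysis.

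Wfdc17 stayed between 4.10 and 4.62 on the log2 scale over these alternatives, Ifitm1 between 2.81 and 3.18, Lrg1 between 1.961 and 2.30, and Steap4 between 2.49 and 4.16. Over the named genes and alternatives, 1062 log2 ratios lay within the 95% interval of the main value, 259 outside it in the same direction or for a gene within 2-fold, and 23 of genes past 2-fold turned direction. With doublets removed, H2-Ab1 was at 0.032 and H2-Aa at 1.45. With S100a8 and S100a9 at 10% or more, Tm4sf1 was at -0.41, Col4a1 at -1.51, Igfbp7 at -1.63, Hist1h2ae at 2.91 and Csf1 at 0.049. With interferon and chemokine sums under 2 UMIs, Tm4sf1 was at -0.97, Col4a1 at -1.45, Igfbp7 at -1.34 and H2-Aa at 0.15. With all cells thinned before the rule, Col4a1 was at -0.36 and Igfbp7 at -0.81, and with members thinned at -1.28 and -0.69. With each cell counted once, Igfbp7 was at -0.24. Without cluster 7, Tm4sf1 was at -0.36, Col4a1 at -1.53, Igfbp7 at -1.41 and Hist1h2ae at 0.32. Without the top cell of each gene, Tm4sf1 was at -0.027, Col4a1 at -1.35 and Igfbp7 at -1.30. The cause was not tested. Scrublet's highest scores removed 3.15% of GA and 0.873% of control members.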
